A study of Homo sapiens with 10 samples.

Results

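The genes described here are the ATP-binding cassette (ABC) transporters, taken as every gene whose symbol is ABC followed by a subfamily letter from A to G and a number. There were 46 such genes among the 58037 gene identifiers in the RNA tables: 12 ABCA, 9 ABCB, 12 ABCC including the pseudogene ABCC13, 4 ABCD, 1 ABCE, 3 ABCF and 5 ABCG genes. They were examined in A549, a human lung adenocarcinoma cell line, and in A549/DDP, its cisplatin (DDP) resistant derivative, to ask how the RNA and the m6A marks of these genes differ between a sensitive and a resistant line. Both lines were grown in RPMI medium with fetal bovine serum, antibiotics and no treatment named in the labels, so neither group is recorded as exposed to the drug at harvest. Whether A549/DDP is 1 clone is not given in the sources used here, and the comparison is of 1 resistant line with 1 parental line. Each line had 2 input libraries of poly(A) RNA, which measure RNA level, and 2 m6A-seq libraries, in which an antibody to N6-methyladenosine (m6A) pulled down the fragments that carry this mark.

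ABC proteins bind and hydrolyse ATP in a pair of nucleotide-binding domains, and most use that energy to move a substrate across a membrane. The ABCB1, ABCC and ABCG2 pumps of the plasma membrane export drugs, or conjugates of drugs with glutathione, glucuronate or sulfate, and are known for multidrug resistance; several of the ABCC proteins take glutathione conjugates. The ABCA proteins and ABCG1 move lipids, several ABCB proteins work in mitochondria and other organelles, and the ABCD proteins serve peroxisomes and lysosomes. ABCE1 and the ABCF proteins have no membrane part and act on ribosomes. m6A is the most common internal mark of messenger RNA, is often found near the stop codon, and is bound by reader proteins such as YTHDF1.

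In A549/DDP, 7 of the 31 ABC genes with enough reads for a test had higher RNA than in A549 at an adjusted p under 0.05 (edgeR), beside 6.85% of all genes tested, and none had lower RNA, beside 8.00%. The 7 higher genes were the ABCC pumps ABCC2, ABCC5 and ABCC6, the lipid transporters ABCA2, ABCA3 and ABCA7, and the lysosomal ABCD4. Their rises lay between 2.06-fold for ABCA3 and 10.2-fold for ABCC6. ABCF1 lay just outside the threshold in the lower direction (adjusted p = 0.051, edgeR) and was called lower by DESeq2. ABCC2, ABCC6 and ABCD4 kept their call whichever of the 4 libraries was left out. Of the 31 genes, ABCB8 alone had m6A peaks in each A549 library and no A549/DDP library, beside 4.62% of all genes tested. ABCE1 alone had the reverse pattern, beside 1.97%. In a set of 31 genes, such counts do not set the ABC genes apart from all genes, and the difference was not tested. The pattern of ABCB8 was lost with peak lists of equal size, and both patterns were lost at p-values up to 1e-05.

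The sequence upstream of the start is shown for 4 of the 7 genes whose RNA was higher in A549/DDP, to set their letters beside the change in RNA. Shown are the 3 genes with a match in the search below, and ABCC2 without one. The letters searched were TGACNNNGC on either strand, the core of the antioxidant response element through which NFE2L2 (NRF2) is known to drive several ABCC genes. Matches are in capitals, and where the match lies on the other strand its letters read in reverse complement. Sequences are from RefSeq (GRCh38.p14), the 250 bases before the first start listed for each gene, 5′ to 3′ on the gene's strand, and lie at chr9:137028923-137029172 (minus strand) for ABCA2, chr16:2340729-2340978 (minus) for ABCA3, chr14:74302935-74303184 (minus) for ABCD4 and chr10:99782390-99782639 (plus) for ABCC2.
ABCA2: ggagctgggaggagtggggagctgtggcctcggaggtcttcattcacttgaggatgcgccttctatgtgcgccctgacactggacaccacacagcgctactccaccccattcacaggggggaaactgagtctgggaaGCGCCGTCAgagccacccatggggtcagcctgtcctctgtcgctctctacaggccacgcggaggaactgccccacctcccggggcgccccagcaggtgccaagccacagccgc
ABCA3: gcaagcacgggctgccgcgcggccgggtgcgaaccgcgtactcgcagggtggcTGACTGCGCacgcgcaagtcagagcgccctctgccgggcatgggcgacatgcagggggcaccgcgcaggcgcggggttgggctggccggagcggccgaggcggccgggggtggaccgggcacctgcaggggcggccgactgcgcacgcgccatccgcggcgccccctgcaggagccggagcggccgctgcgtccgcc
ABCD4: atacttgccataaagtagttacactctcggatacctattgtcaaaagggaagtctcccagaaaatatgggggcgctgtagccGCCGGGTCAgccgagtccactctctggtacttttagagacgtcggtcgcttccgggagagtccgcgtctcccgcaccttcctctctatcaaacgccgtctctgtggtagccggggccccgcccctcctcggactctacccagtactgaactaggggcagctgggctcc
ABCC2: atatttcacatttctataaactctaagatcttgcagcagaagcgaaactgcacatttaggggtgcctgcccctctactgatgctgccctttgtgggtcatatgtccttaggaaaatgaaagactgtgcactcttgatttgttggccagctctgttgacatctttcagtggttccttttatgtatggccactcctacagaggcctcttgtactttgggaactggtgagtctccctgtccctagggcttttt
The matches began at base -113 for ABCA2, -197 for ABCA3 and -168 for ABCD4, counted from the start, and ABCC2 had none in this window. Of the 7 genes with higher RNA, all with a promoter in the RefSeq table, 3 held these letters. ABCA7, ABCC5 and ABCC6 held none and are not shown. The letters were in 6 of the 35 ABC genes with a promoter in the table, the others being ABCB6, ABCC4 and ABCF1, and in 10.91% of all 35116 promoters. All 6 were among the 25 ABC genes tested for RNA that had a promoter in the table. ABCC1 and ABCC3 had no promoter in the table and were not searched. A match is a run of letters and was not tested as a site.

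The input libraries held 29225501 to 35286514 expected counts, so the depth differed little between the lines. The second A549/DDP input had the fewest genes above 0 counts, 15830 at 33971561 counts, beside 18304 at 29225501 counts in the first. A further pair of A549 inputs had only 855034 and 982036 counts, 75.2% and 73.9% of them mitochondrial, and entered only as an alternative. The labels do not say that replicates were separate cultures, so p-values measure the spread between these libraries, which may be technical. The labelled epithelial line was checked on 6 epithelial markers, of which KRT8, KRT18 and CDH1 were higher in A549/DDP, KRT7 was lower, and EPCAM and KRT19 did not pass. Of the leukocyte markers, CD68 was at 128 to 156 TPM, the transcript level scaled for length and library size, CD14 at 0.03 to 4.86 TPM and PTPRC at most at 0.06 TPM, and CD3E was listed at 0. In the other lists the endothelial genes were at most 0.39 TPM and HBB at most 0.52 TPM. The fibroblast list summed to 3.04 to 20.1 TPM. The hepatocyte marker ALB was at 29.8 and 11.9 TPM in A549 and at 167 and 0.86 TPM in A549/DDP, so the A549/DDP replicates stood far apart in it. The part of these markers in the results below was not tested.

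On the TPM scale, which lets genes of different length be compared, the ABC genes of highest mean level were ABCC3, ABCF1, ABCC2, ABCF2 and ABCC1. ABCC3, an exporter of glucuronides and bile salts, stood at 183 and 204 TPM in the A549 libraries and at 289 and 253 TPM in the A549/DDP libraries. ABCC2, the apical pump of conjugated drugs, stood at 93.7 and 108 TPM against 205 and 222 TPM. ABCC1, the multidrug resistance protein that exports glutathione conjugates, stood at 79.7 and 98.6 TPM against 150 and 123 TPM. In each of these 3 pumps both A549/DDP libraries lay above both A549 libraries. ABCF1, a translation factor of the initiation step, went the other way, with 241 and 252 TPM in A549 and 132 and 113 TPM in A549/DDP. ABCF2, its relative, had 146 and 150 TPM against 123 and 172 TPM, and the lines overlapped. Each neighbouring pair in the order overlapped in its range over the 4 libraries, so the order itself is not firm.

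**Figure D1:**
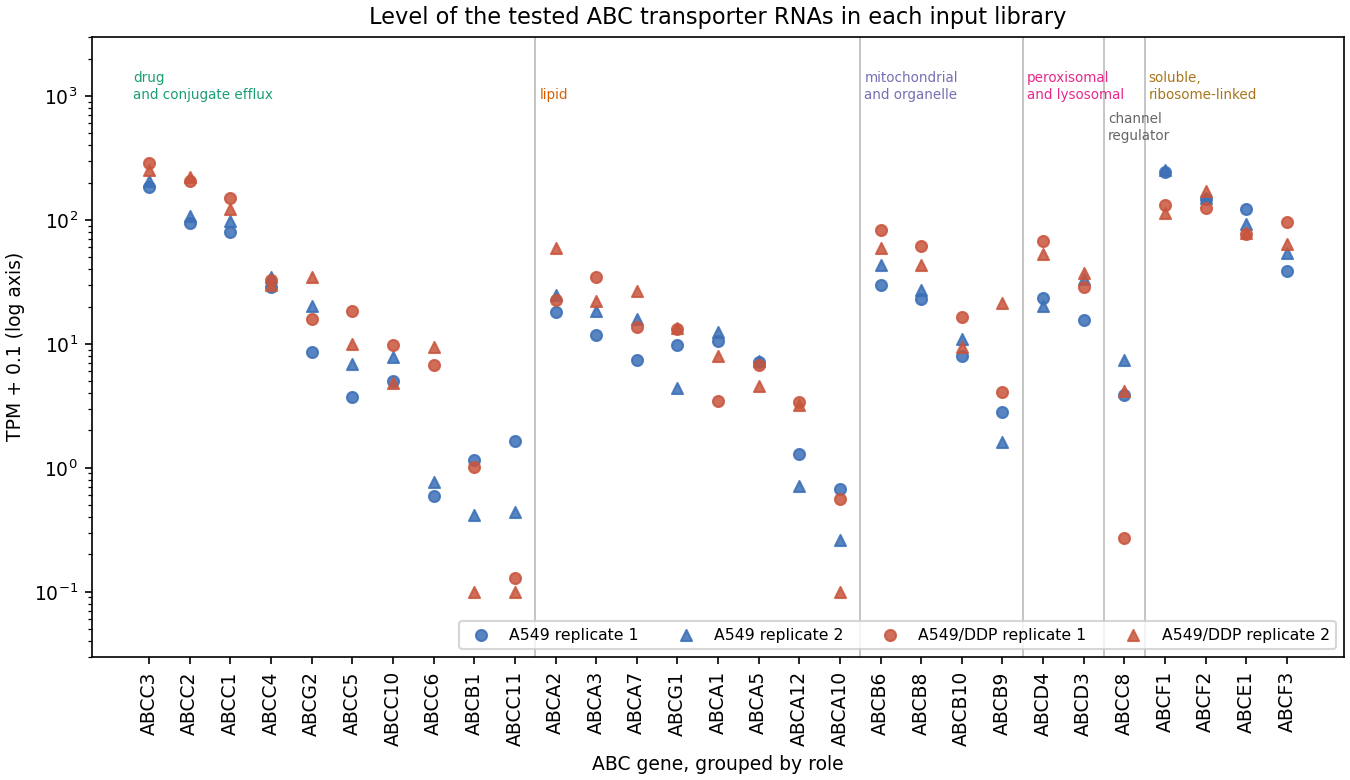
TPM plus 0.1, on a log axis, of 29 of the tested ABC genes, grouped by role and ordered by mean level; each point is 1 input library, blue for A549 and red for A549/DDP, circles for replicate 1 and triangles for replicate 2. ABCC3, ABCC2 and ABCC1 lie above 79 TPM in every library with the red points on top, while for ABCF1 the blue points are on top.

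Of the pumps, the ABCC subfamily made up 34.8% and 36.2% of the summed TPM of the 46 genes in the A549 libraries and 46.1% and 43.6% in the A549/DDP libraries. The 4 ribosome-linked genes summed to 548.6 and 548.5 TPM in A549 and to 430 and 427 TPM in A549/DDP, and the efflux group to 405 and 481 TPM against 728 and 686 TPM. These sums describe the libraries and were not tested.

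Between the lines, RNA was compared on expected counts with edgeR's quasi-likelihood test, and values are CPM, the counts scaled by TMM to a common library size, with adjusted p-values over the 16406 genes tested and a threshold of 0.05. Of the 46 ABC genes, 31 had enough counts for the test in the libraries of either line, and 7 of them (22.6%) were called higher and none lower. At an unadjusted p under 0.05 there were 15 of the 31 ABC genes, 1 of them lower, beside 32.7% of all genes tested. DESeq2 called 14 of 41 ABC genes higher and 1 lower, beside 9.03% and 9.95% of all 22792 genes in its fit. The median log2 change of the 31 genes was 0.48, beside -0.0016 for all genes tested. In 17 of the 31 genes both A549/DDP libraries lay above both A549 libraries, which 29.7% of all genes tested did, and in 6 both lay below, which 32.7% of all genes did. Genes that passed only through the line where they are high had to differ, so these counts describe the tested genes.

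**Figure D2:**
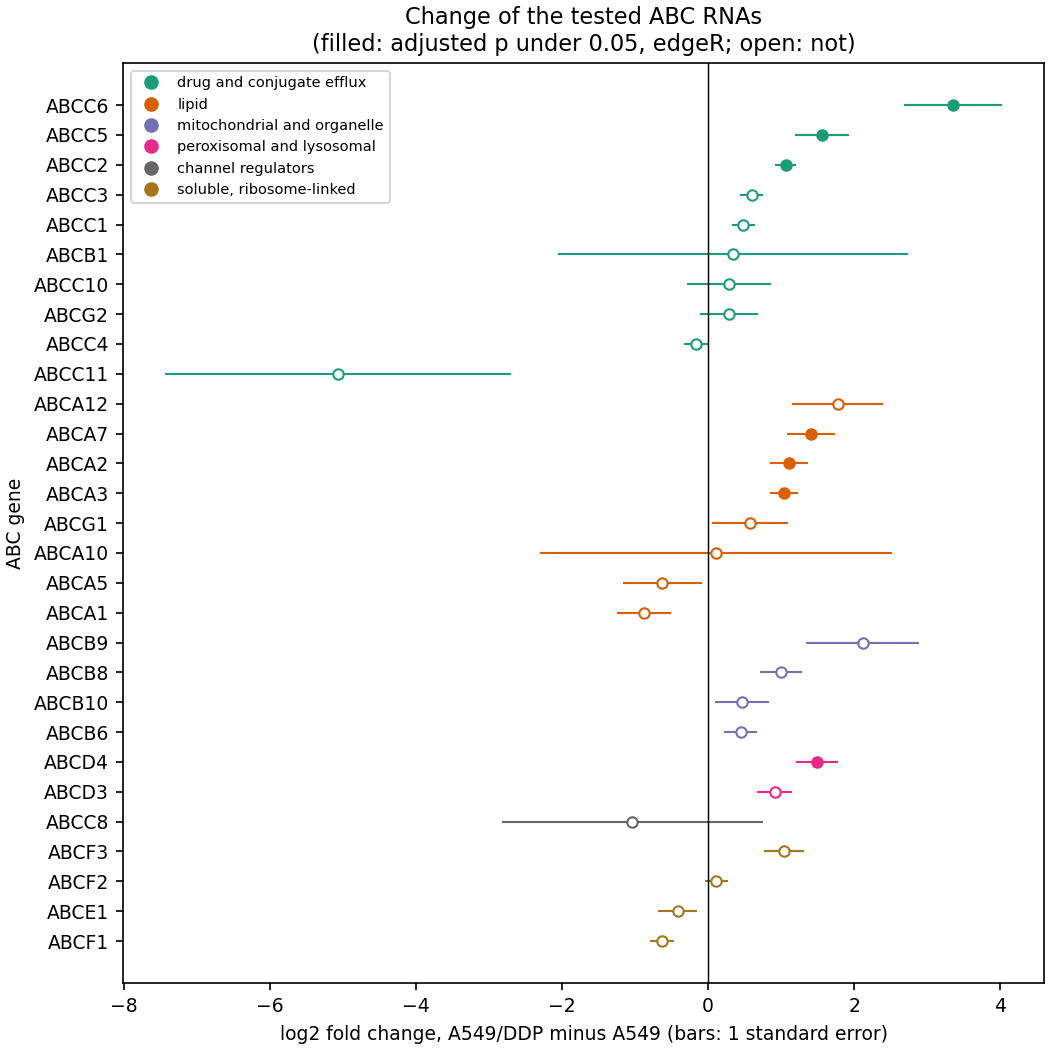
Log2 fold change, A549/DDP minus A549, of 29 of the tested ABC genes with 1 standard error from edgeR, coloured by role; filled points have an adjusted p under 0.05. The 7 filled points all lie between 1.04 and 3.35, and the wide bars of ABCB1, ABCA10 and ABCC11 belong to genes with few counts.

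In the efflux group, 3 of the 10 tested genes rose, ABCC2, ABCC5 and ABCC6, and none fell. This count and those of the role groups below stand beside 6.85% of all genes called higher and 8.00% called lower. ABCC2 had 333 and 340 CPM in A549 and 693 and 715 CPM in A549/DDP. The replicates of each line lay within a few percent of each other, and the log2 change was 1.06 ± 0.14 (SE), adjusted p = 0.0090. ABCC5, an exporter of cyclic nucleotides and nucleotide analogues, had 8.78 and 15.2 CPM in A549 and 35.4 and 35.5 CPM in A549/DDP. Its log2 change was 1.56 ± 0.37 (SE), adjusted p = 0.041, and in CPM the A549 replicates were the ones that spread. ABCC6, known from pseudoxanthoma elasticum and from ATP release, had 0.94 and 2.29 CPM in A549 and 13.9 and 19.2 CPM in A549/DDP. Its log2 change of 3.35 ± 0.67 (SE), adjusted p = 0.026, came from a gene that was close to silent in A549, with 31 and 81.2 expected counts. ABCC6 has near-identical pseudogenes among which reads can be split. With ABCC6P1 and ABCC6P2 added to it, ABCC6 was still called higher, with a log2 change of 3.24 (adjusted p = 0.031, edgeR).

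The other classic drug pumps did not pass. ABCC3 had 450 and 518 CPM against 758 and 706 CPM, a log2 difference of 0.60 ± 0.16 (SE) with adjusted p = 0.053. ABCC1 had 313 and 326 CPM against 477 and 414 CPM, a difference of 0.48 ± 0.16 (SE) with adjusted p = 0.094. In both, the lines did not overlap, and DESeq2 called both higher. ABCC4, an exporter of cyclic nucleotides and prostaglandins, had 113 and 112 CPM against 99.2 and 102 CPM, a difference of -0.16 (adjusted p = 0.59). ABCC10, an exporter of taxanes and other drugs, had 9.85 and 11.4 CPM against 19.0 and 6.99 CPM, so that the A549/DDP libraries lay on both sides of A549 (adjusted p = 0.80). ABCG2, the breast cancer resistance protein, had 23.7 and 52.9 CPM against 44.5 and 49.0 CPM, within the spread of the A549 replicates (adjusted p = 0.70).

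ABCB1, which encodes P-glycoprotein, was near the limit of detection in both lines. Its expected counts were 58 and 12 in A549 and 79 and 0 in A549/DDP, or at most 1.06 TPM in any library. The difference of 0.34 ± 2.40 (SE) on the log2 scale (adjusted p = 0.95) had an error so wide that no change could be shown or bounded in these libraries. Other genes too had counts in the first A549/DDP input and 0 in the second, such as KRT19 with 213 and APOA1 with 831. ABCA8 went the other way, with 7 and 70 counts. The reason was not tested. ABCC11, a pump of the same kind, had 21 and 25.3 counts in A549 and 1 and 0 in A549/DDP, which did not pass either (adjusted p = 0.20). ABCC12 had 18 counts in 1 A549 library and 0 elsewhere.

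Of the lipid transporters, 8 of 17 were tested and 3 rose. ABCA2, which works in late endosomes and lysosomes, had 37.7 and 49.9 CPM against 79.1 and 110 CPM, a log2 change of 1.11 ± 0.26 (SE), adjusted p = 0.040. ABCA3, the transporter of lamellar bodies in alveolar type II cells that loads surfactant phospholipid, had 45.0 and 46.5 CPM against 96.3 and 91.8 CPM. It changed by 1.04 ± 0.19 (SE), adjusted p = 0.019, with replicates close in CPM in both lines. ABCA7, a relative of the cholesterol exporter ABCA1, had 11.8 and 17.7 CPM against 42.4 and 36.2 CPM, a change of 1.41 ± 0.33 (SE), adjusted p = 0.039. ABCA1 itself had 68.6 and 57.9 CPM against 22.6 and 46.0 CPM, a difference of -0.88 with adjusted p = 0.16. ABCG1, which passes cholesterol to HDL, had 19.6 and 7.42 CPM against 21.2 and 19.0 CPM and did not pass (adjusted p = 0.53). ABCA12, the lipid transporter of skin keratinocytes, had 7.42 and 2.54 CPM against 15.9 and 18.2 CPM (adjusted p = 0.11).

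In ABCA2 and ABCA7 the TPM values of the lines overlapped although the CPM values did not. ABCA2 stood at 17.9 and 24.9 TPM in A549 and at 22.4 and 59.3 TPM in A549/DDP, and ABCA7 at 7.32 and 15.8 TPM against 13.5 and 26.5 TPM. TPM divides by the effective transcript length that the authors' estimate gives each library. For ABCA2 that length was 3048 and 3312 bases in A549 but 5445 and 2884 bases in A549/DDP, and for ABCA7 2337 and 1852 bases against 4856 and 2117 bases. In both genes the first A549/DDP library had the longest value. ABCA3 and ABCC5 had A549/DDP replicates close in CPM but apart in TPM, at 34.4 and 22.0 for ABCA3 and 18.3 and 9.86 for ABCC5. Their effective lengths there were 4310.5 and 6454 bases for ABCA3 and 2981 and 5579 bases for ABCC5. With limma on log2(TPM + 1), only ABCC2 and ABCD4 of the 7 genes were called, and ABCF1 was called lower.

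Of the organelle genes of the ABCB subfamily, all 5 were tested and none passed. ABCB8, the mitochondrial transporter that forms part of a potassium channel, had 38.6 and 33.7 CPM against 89.1 and 55.2 CPM, a difference of 1.00 ± 0.29 (SE), adjusted p = 0.070. ABCB6, ABCB9 and ABCB10 differed by 0.45 to 2.12 on the log2 scale, with adjusted p-values from 0.12 to 0.45. ABCB9, a lysosomal peptide transporter, had the 2.12 and only 58 to 312 counts.

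The peroxisomal and lysosomal ABCD genes gave 1 call of 3 tested. ABCD4, which with LMBRD1 lets cobalamin out of lysosomes, had 17.4 and 13.2 CPM in A549 and 41.7 and 44.5 CPM in A549/DDP, a change of 1.49 ± 0.29 (SE), adjusted p = 0.023. Its partner LMBRD1 had 10.6 and 10.0 CPM against 8.27 and 5.22 CPM (adjusted p = 0.52). ABCD3, a peroxisomal carrier of fatty acids, lay just outside the threshold at 28.6 and 36.8 CPM against 63.7 and 59.5 CPM (adjusted p = 0.053).

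Among the ribosome-linked genes none of 4 passed, and ABCF1 missed the threshold narrowly in the lower direction. ABCF1 had 239 and 218 CPM against 143 and 152 CPM, a difference of -0.63 ± 0.16 (SE) with adjusted p = 0.051. Of the 13 alternatives that left no single library out, 7 called ABCF1 lower, DESeq2 among them. The sum of ABCC6 with its pseudogenes, 1 of the 13, left the counts of ABCF1 unchanged. ABCF3 had 32.6 and 37.9 CPM against 87.6 and 57.8 CPM, a difference of 1.04 with adjusted p = 0.053. ABCE1, which splits ribosomes after termination, had 151 and 92.6 CPM against 86.8 and 96.2 CPM, so that the lines overlapped (adjusted p = 0.35). ABCF2 had 158 and 166 CPM against 180 and 170 CPM, a difference of 0.11 (adjusted p = 0.71).

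The 15 ABC genes not tested had at most 70 counts in any library, that of ABCA8 in the second A549/DDP library. ABCA13, ABCB5, ABCC13, ABCD2 and ABCG4 were at 0 counts in the 4 libraries. ABCA4, ABCA6, ABCA9, ABCB4, ABCB11, ABCC9, ABCG5 and ABCG8 were between 0 and 56 counts. ABCC8, the sulfonylurea receptor of the pancreatic potassium channel, passed the filter with 51 and 86 counts in A549 and 2 and 65 in A549/DDP and was not called.

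Several ABC genes are neighbours in the genome (RefSeq, GRCh38.p14). ABCC1, at 15949143 to 16143053, and ABCC6, at 16149565 to 16223494, lie on chromosome 16 only 6512 bases apart, and of this pair ABCC6 was called higher and ABCC1 was not. ABCA8, ABCA9, ABCA6, ABCA10 and ABCA5 form a cluster on chromosome 17. In it ABCA9 overlaps ABCA6, and ABCA10 overlaps ABCA5, by annotation. ABCA5 had 180 to 417 counts and the other 4 at most 70. ABCB4 and ABCB1 lie 26990 bases apart on chromosome 7, and both were at most 79 counts.

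The 7 calls did not rest equally on the libraries. Of the 17 alternatives, the sum of ABCC6 with its pseudogenes changed the counts of ABCC6 alone, so it hardly tests the other calls. ABCC2 was called under 15 of 17 alternatives, ABCD4 under 14, ABCC6 under 12, ABCA2 under 11, ABCA3 and ABCA7 under 10 each and ABCC5 under 8, all with the same direction. Without the first A549/DDP input 4 of 34 ABC genes were called higher, ABCA2, ABCC2, ABCC6 and ABCD4, beside 4.29% of all genes. Without the second there were 6 of 35, beside 4.92%, of which ABCA7, ABCC2, ABCC6 and ABCD4 were among the 7. When the second A549 pair was added to the fit only ABCC6 was called, beside 2.03% of all genes higher.

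Genes that work with or around the ABC transporters were read from lists, whose counts stand beside the same 6.85% of all genes called higher and 8.00% called lower. Of the superfamily members under other symbols, the peptide transporter TAP1 fell, from 50.6 and 66.0 CPM to 20.8 and 15.9 CPM, a log2 change of -1.67 ± 0.28 (SE), adjusted p = 0.016. TAP2 had 44.2 and 38.4 CPM against 19.2 and 36.4 CPM and did not pass, and the chloride channel CFTR had at most 2 counts. Of 16 tested partners, 3 rose and 1 fell. The lipoprotein receptor SCARB1 had 108 and 121 CPM against 335 and 324 CPM (log2 change 1.53, adjusted p = 0.0049), and APOE, which takes up exported cholesterol, had 11.0 and 5.33 CPM against 63.5 and 41.1 CPM (2.68, adjusted p = 0.016). GCN1, whose yeast counterpart works with an ABCF protein on ribosomes, rose by 0.71 (adjusted p = 0.033). NPC1, which moves cholesterol out of lysosomes, fell by 1.26 on the log2 scale (adjusted p = 0.024).

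Of 16 tested transcription factors known to act on ABC genes, 6 rose and 3 fell, beside 6.85% and 8.00% of all genes. HNF4A, the hepatocyte nuclear factor, had 21.4 and 30.5 CPM in A549 and 176 and 174 CPM in A549/DDP, a log2 change of 2.75 ± 0.24 (SE), adjusted p = 0.0032. NR1H4 (FXR), the bile acid receptor, had 0.82 and 0.71 CPM against 12.3 and 6.68 CPM (adjusted p = 0.037). PPARA, RXRA and NR1H2 (LXR beta) rose by 3.53, 1.16 and 1.04. NFE2L2 fell, from 235 and 206 CPM to 95.4 and 106 CPM, a change of -1.13 ± 0.17 (SE), adjusted p = 0.012. AHR fell by 1.65 and HIF1A fell by 0.99. NR1I2 (PXR), a main inducer of ABCB1 in liver, did not reach the filter, with 0 to 11 counts.

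Of 11 tested carriers of drugs or platinum outside the superfamily, 3 rose and none fell, beside the same shares. The copper transporter SLC31A1, a route of cisplatin entry, had 44.9 and 47.3 CPM against 101 and 97.3 CPM, a log2 change of 1.11 ± 0.18 (SE), adjusted p = 0.016. The organic cation transporter SLC22A3 rose by 1.81 (adjusted p = 0.021) and the major vault protein MVP by 1.05 (adjusted p = 0.011). The copper pumps ATP7A and ATP7B, known for platinum export, differed by 0.10 and 1.30 with adjusted p-values of 0.87 and 0.33.

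Peaks of m6A were given as lists of calls with no level or read depth, so peaks were counted and not tested, since 2 lists against 2 allow an exact permutation test no p below 0.33. The lists differed in length, with 26320 and 14576 peaks in A549 and 27244 and 10661 in A549/DDP, so that within each line 1 list was much the shorter. In them, 86 peaks lay in 11 ABC genes, and 47 of the 86 were centred in the last 20% of the gene's span, introns included. The same site can count once in each library, and the share over all peaks was not computed, so this describes these peaks only. Merged across libraries the 86 peaks made 50 regions of 37903 in all.

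Of the 31 tested ABC genes, 4 had a peak in both A549 libraries, ABCB6, ABCB8, ABCC1 and ABCF1, where 27.1% of all genes tested did. The ABCB6 peaks of the A549 libraries lay at different sites, and no region of ABCB6 was called in both. In both A549/DDP libraries 4 genes had a peak, ABCC1 and ABCF1 again with ABCE1 and ABCF2, where 19.5% of all genes did. No peak was listed for 20 of the 31, beside 43.0% of all genes tested. ABCC2 and ABCC3 had no peak in any list in spite of their level. A level chosen after the values were seen, a mean TPM of at least 100, held 5 ABC genes, of which these 2 had no peak, and 17.4% of the 1934 genes at that level had none. Of the 7 genes with higher RNA in A549/DDP, ABCA3 alone had a peak, 1 in the first A549/DDP library.

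**Figure D3:**
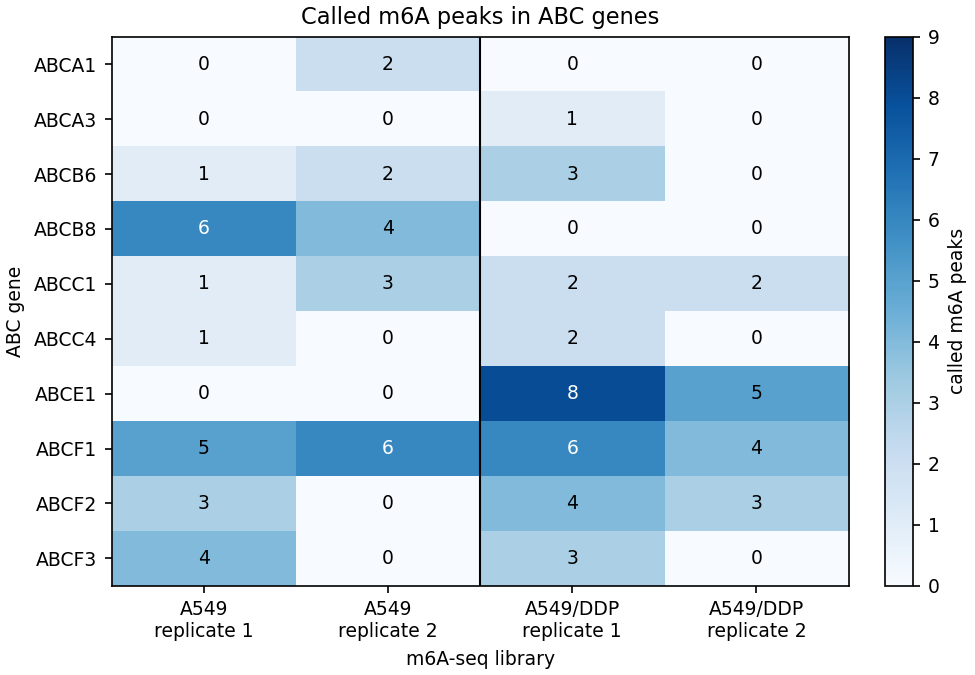
Number of called m6A peaks in 10 of the ABC genes with a peak, by m6A-seq library; the black line divides the lines and darker blue stands for more peaks. ABCB8 has 6 and 4 peaks in A549 and none in A549/DDP, ABCE1 has 8 and 5 in A549/DDP and none in A549, and ABCF1 has 4 to 6 in every library.

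ABCB8 had 6 and 4 peaks in the A549 libraries and 0 in both A549/DDP libraries, the pattern of 1 of the 31 ABC genes and of 4.62% of all genes tested. Its regions shared by the A549 replicates were chr7:151044199-151046584, chr7:151046634-151046883 and chr7:151047383-151047782 on the plus strand. They lie in the last part of the gene, with peaks centred from 87.4% to 99.5% of its span. The deposited p-values were 0.00032 in the first and 0.00021 in the second A549 library. RNA of ABCB8 was measured in both lines and was at no lower CPM in A549/DDP, as given above.

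ABCE1 had 0 peaks in both A549 libraries and 8 and 5 in the A549/DDP libraries, the pattern of 1 of the 31 ABC genes and of 1.97% of all genes tested. Its 4 shared regions were chr4:145105633-145108106, chr4:145128085-145128234, chr4:145128334-145128732 and chr4:145128831-145129030 on the plus strand. The first joins exon blocks across an intron near the 5′ end, with peaks centred at 27.3% and 27.4% of the span. The peaks of the others are centred between 95.5% and 98.1%. The p-values ran from 3.6e-08 to 4.2e-08 in the first A549/DDP library and from 0.00017 to 0.0035 in the second. ABCE1 was at 77.4 to 123 TPM in every input.

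ABCF1 had 5 and 6 peaks in A549 and 6 and 4 in A549/DDP, and 3 of its regions were called in all 4 libraries, at chr6:30571475-30578437, chr6:30578486-30586160 and chr6:30589932-30591398. ABCC1 had 1 and 3 peaks in A549 and 2 in each A549/DDP library. Its region at chr16:16141181-16142476, with peaks centred at 99.3% to 99.4% of the span, was called in all 4. These 4 regions made up the ABC regions called in every library, where 8.72% of all 37903 regions were. The regions called in both libraries of one line and neither of the other were the 3 of ABCB8 for A549, beside 6.12% of all regions, and the 4 of ABCE1 for A549/DDP, beside 3.09%. Regions of 1 gene share its RNA and are not independent of each other.

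**Figure D4:**
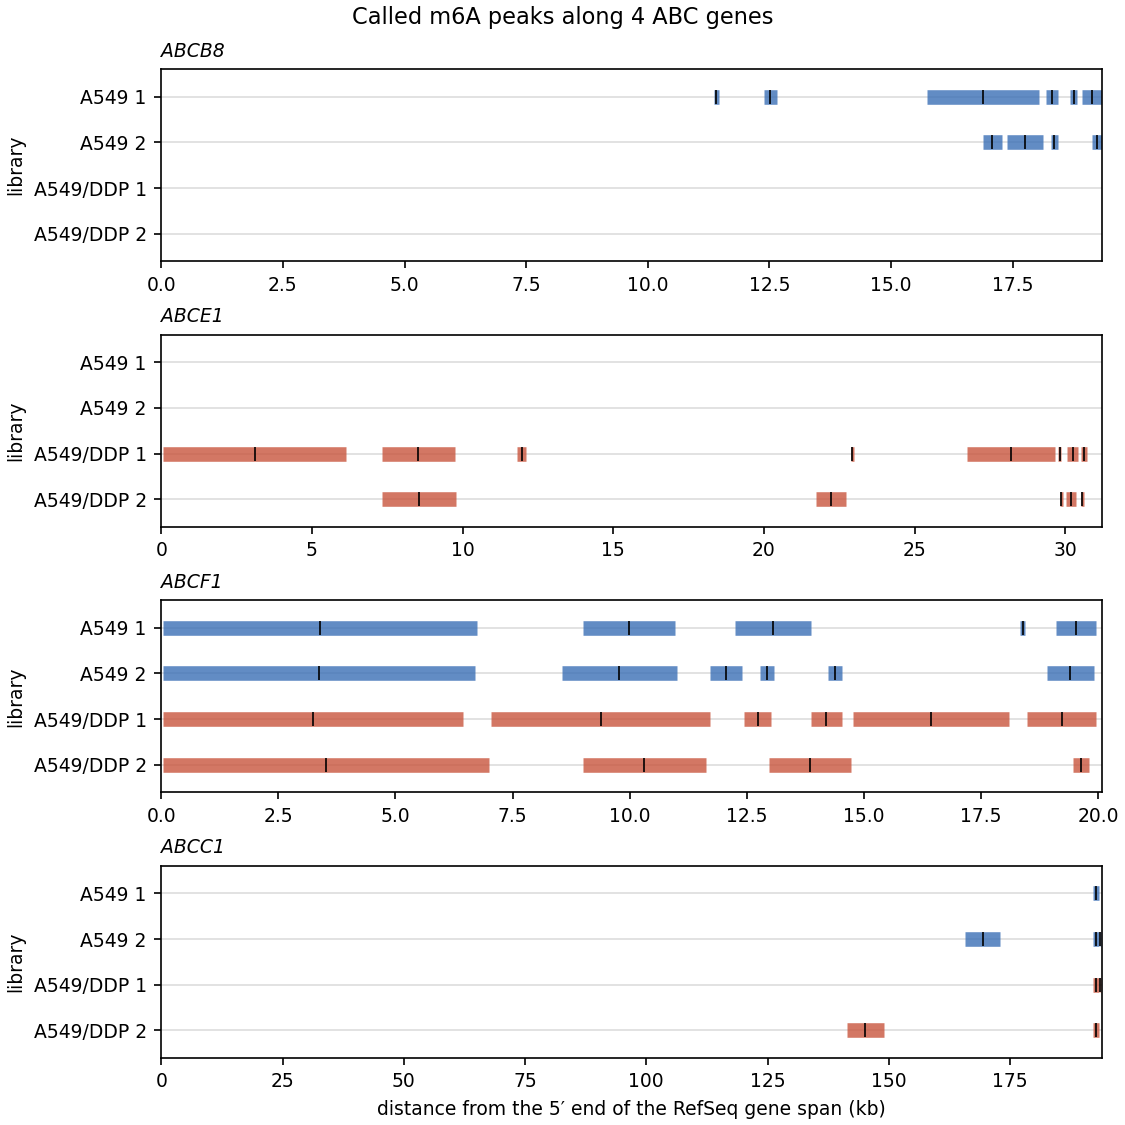
Called m6A peaks along ABCB8, ABCE1, ABCF1 and ABCC1 in each m6A-seq library (1 and 2 are replicates); bars span a peak from its first to its last base, introns between exon blocks included, with a tick at the centre, against distance in kb from the 5′ end of the RefSeq gene. ABCB8 has bars in the A549 rows alone and ABCE1 in the A549/DDP rows alone, while ABCC1 has bars near its 3′ end in all 4 rows.

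The other genes with peaks were called in 1 to 3 libraries each. ABCF2 had 3 and 0 peaks in A549 and 4 and 3 in A549/DDP. ABCB6 had 1 and 2 in A549 and 3 and 0 in A549/DDP, but its regions share bases with peaks listed for ATG9A on the same strand, so its peaks and reads may belong to either gene. ABCF3 had 4 and 0 against 3 and 0, and ABCC4 1 and 0 against 2 and 0, all in the longer lists. ABCA1 had 2 peaks in the second A549 library alone. Of the 86 peaks, 22 had a p-value at or below 1e-05, and none of the ABC genes had such a peak in both libraries of a line. With lists reduced to 10661 peaks of smallest p-value each, ABCE1 kept peaks in both A549/DDP libraries and neither A549 library. In these lists that was the pattern of 1 of the 31 tested ABC genes and of 1.82% of all genes tested. ABCB8 did not keep its pattern.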

How the data were processed

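Input libraries of A549 (2) and A549/DDP (2) and m6A-seq libraries of each line (2 and 2) were grouped by the titles in the labels. The labels of the A549/DDP inputs give A549 as the cell line, and their title and cell type give DDP resistance. Replicate numbers follow the labels, which for the A549 m6A-seq libraries are exchanged against the numbers in the file names. The authors prepared strand-specific libraries and named STAR, RSEM, bedtools and hg38 in their processing notes, without roles or versions. Whether counting used strand, and the peak caller, are not given in the sources used here.

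For the inputs, the authors deposited RSEM-style gene tables with expected counts beside TPM and FPKM values, and 56993 of 58037 identifiers were matched to a symbol. The authors deposited per m6A-seq library a list of peaks with exon blocks and a p-value, not said to be raw or adjusted.

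After rounding and filterByExpr, expected counts of 16406 genes went into edgeR 4.0.16 (R 4.3.3; TMM, quasi-likelihood test), with Benjamini-Hochberg adjustment at 0.05. The common biological coefficient of variation was 0.656. Standard errors were derived from the log2 fold change and edgeR's F. Replicates differed beyond sampling noise (chi-square per degree of freedom 89.6 and 54.9). Peaks overlapping by 1 base or more of exon on a strand were merged into regions. The edgeR test was tried on simulated counts with less spread than these data, so that trial does not show how it behaves here. The merging of peaks was tried on made-up peaks. Alternatives were DESeq2 1.42.0, other scalings and filters, a replicate block, limma 3.58.1 on log2 TPM or FPKM, the second A549 pair and leaving out each library. ABCC6 summed with its pseudogenes was added after seeing the data.

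Genes named were those called, the classic efflux pumps, the 5 of highest mean TPM and those with a region in both libraries of 1 line only. The genes and lists were chosen with earlier results of these data known. YTHDF1 RIP-seq was not analysed here. Values of some genes are not reported here.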

Additional observations from a re-analysis of the deposited data

How the results depend on the processing

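Against 7 of 31 ABC genes higher and 0 lower, with 6.85% and 8.00% of all genes, DESeq2 gave 14 and 1 of 41 (9.03% and 9.95% of all genes), no filter beyond 1 count 12 and 2 of 41 (8.06% and 9.54%), and at least 10 counts in every library 13 and 1 of 27 (13.6% and 14.5%). Limma gave 2 and 1 of 29 on log2(TPM + 1) (4.32% and 5.37%), 2 and 1 of 29 on log2(TPM + 0.1) (3.31% and 4.33%) and 2 and 1 of 28 on log2(FPKM + 1) (5.76% and 5.60%). Adding the second A549 pair gave 1 and 0 of 31 (2.03% and 2.07%). Limma on log2(TPM + 1) without a filter called 0 ABC genes and 0 of 22802 genes, 4519 of them at an unadjusted p under 0.05. Upper-quartile scaling gave 10 and 0 (7.76% and 7.69%), RLE 7 and 0 (6.90% and 8.02%), and the second A549 pair in place of the first, where the median of all genes was shifted to 0.80, 9 and 0 of 28 (17.2% and 10.0%). Leaving out 1 input gave 4 to 12 higher (4.29% to 9.39% of all genes) and 0 to 3 lower (6.21% to 11.3%). With the replicate block there were 12 higher and 2 lower (9.95% and 11.6%); same-numbered deviations correlated at 0.023, so the numbers were not taken as a pairing. The causes were not tested.

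The sign of the log2 difference changed in genes that were not called in the main test. ABCB1 was at -2.01 with the replicate block, -0.25 with limma on log2(TPM + 1) without a filter, -1.62 with the second pair, -0.45 with both pairs, -0.42 without A549 input replicate 2 and -8.19 without A549/DDP input replicate 1. ABCC10 was at -0.62 without A549/DDP input replicate 1, ABCG2 at -0.19 without A549 input replicate 1, ABCC4 at 0.043 with FPKM, ABCF1 at 0.14 with the second pair, and ABCF2 at -0.0213 with limma on log2(TPM + 1), with or without a filter, and at -0.0216 with log2(TPM + 0.1). Over the left-out inputs the range was -8.19 to 1.95 for ABCB1, -0.62 to 0.83 for ABCC10 and -0.19 to 0.97 for ABCG2.

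Restricting peaks to p-values up to 1e-05 gave 0 for every count of ABC genes and regions by line (1.82% to 6.42% of all genes, 1.48% to 3.22% of all regions). Lists of equal size gave 1 gene in both A549 libraries (8.16% of all genes), 1 in both A549/DDP libraries (6.77%) and 0 in A549 alone (2.57%). They gave 0 regions in A549 alone (4.11% of all regions) and 0 in all 4 libraries (1.85%). In A549/DDP alone they gave 1 gene (1.82% of all genes) and 4 of 34 regions (2.93% of all regions), those of ABCE1. A peak in either replicate gave 9 of 31 genes for A549 (47.3% of all genes), 8 for A549/DDP (43.4%), 3 for A549 alone (13.6%) and 2 for A549/DDP alone (9.72%). Leaving out 1 m6A-seq library gave 4 to 8 genes for A549 (27.1% to 43.7%) and for A549/DDP (19.5% to 40.7%), and 1 to 2 in A549 alone (5.32% to 12.5%) and in A549/DDP alone (2.82% to 8.61%). Regions in A549 alone were 7 of 39 (13.5% of all regions) without A549 m6A-seq replicate 1 and 16 of 48 (31.0%) without replicate 2. They were 4 of 39 (19.0%) without A549/DDP m6A-seq replicate 1 and 3 of 46 (7.15%) without replicate 2. In the same order, regions in A549/DDP alone were 5 of 39 (7.42%), 4 of 48 (3.99%), 8 of 39 (9.39%) and 16 of 46 (31.0%). The 4 regions called in all libraries became 5 to 6 (11.9% to 17.2% of all regions). Peak calls carry no read depth, so a missing peak is not shown to be a missing mark.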

Other observations

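In the second pair of A549 inputs, whose experiment the labels do not name, the 46 ABC genes together held 139 and 156 expected counts, and 20 and 24 of them were above 0.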
